A study of Mus musculus with 4 samples.

Results

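Liver-enriched transcription factors are the group described here: 8 genes, namely Hnf4a, Foxa1, Foxa2, Foxa3, Cebpa, Cebpb, Onecut1 and Nr1h4. Each of the 8 was listed once among the 15500 genes of the liver RNA-seq table, and the choice went by symbol, with no threshold on their values. The table held 4 libraries of male Kunming mice, wild-type and 5 weeks old at purchase according to the methods, with 1 library for each of the conditions Vehicle, CLA, GW6471 and CLA+GW6471. Vehicle mice had 1.5% (w/w) linoleic acid in their chow, and CLA mice had 1.5% (w/w) conjugated linoleic acid, an equal mixture of the c9t11 and t10c12 isomers, instead. The GW6471 group had linoleic acid plus daily intraperitoneal injections of the PPARα antagonist GW6471 at 20 mg/kg, and the CLA+GW6471 group had CLA plus the same injections. All groups were of 6 mice and were fed a normal chow for 1 week beforehand, the experimental diets ran for 28 days according to the labels and the methods, and sampling was at zeitgeber time 8 according to the methods. Vehicle injections were given where appropriate, according to the labels. Neither the labels nor the methods say whether 1 mouse or a pool of mice made up a library, and the methods describe the Vehicle and CLA groups alone.

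These factors form a network that sets up and maintains the gene program of hepatocytes. HNF4α and the bile acid receptor FXR are nuclear receptors, the FOXA proteins open compacted chromatin through a forkhead domain, the C/EBP proteins are basic leucine zipper factors, and HNF6 carries a cut domain and a homeodomain. They bind to each other's genes and jointly to the genes of plasma proteins, gluconeogenesis and bile acid metabolism.

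All 8 factors were expressed in every library. The labels name liver as the tissue, yet several defining genes of adult hepatocytes, among them Cps1, Cyp2e1 and Ttr, were at or below 0.10 FPKM in all 4 libraries, as described with the cell type markers. Values are FPKM, sequenced fragments divided by transcript length and by library depth, so that levels can be compared between genes. The lowest value of any factor was 4.21 FPKM, for Onecut1 in CLA+GW6471, and the highest was 148.82 FPKM, for Cebpb in the same library. The median of the factors' mean levels was 23.8 FPKM, against 5.97 FPKM over all listed genes. Depth was estimated from the steps between low FPKM values at 18680000 to 19240000 reads per library, so that the factors rested on about 147 (Onecut1 in CLA+GW6471) to 4472 (Hnf4a in Vehicle) reads.

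The order by mean level was Cebpb, Hnf4a, Foxa2, Foxa3, Cebpa, Nr1h4, Foxa1 and Onecut1. Neighbours in this order were compared within each library by 95% counting intervals (exact Clopper-Pearson), which are approximate and cover counting error only. Hnf4a and Foxa2 lay within counting error of each other in 3 of the 4 libraries, and Nr1h4 and Foxa1 in 2 of them. Foxa1 and Onecut1 were likewise not separated in 2 libraries. The first 5 places held the same genes in all libraries except that Hnf4a and Foxa2 changed places. In CLA alone, Onecut1 stood above Nr1h4 and Foxa1. In that library Foxa1 lay within counting error of both Onecut1 and Nr1h4, and Onecut1 and Nr1h4 were not compared with each other.

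**Figure D1:**
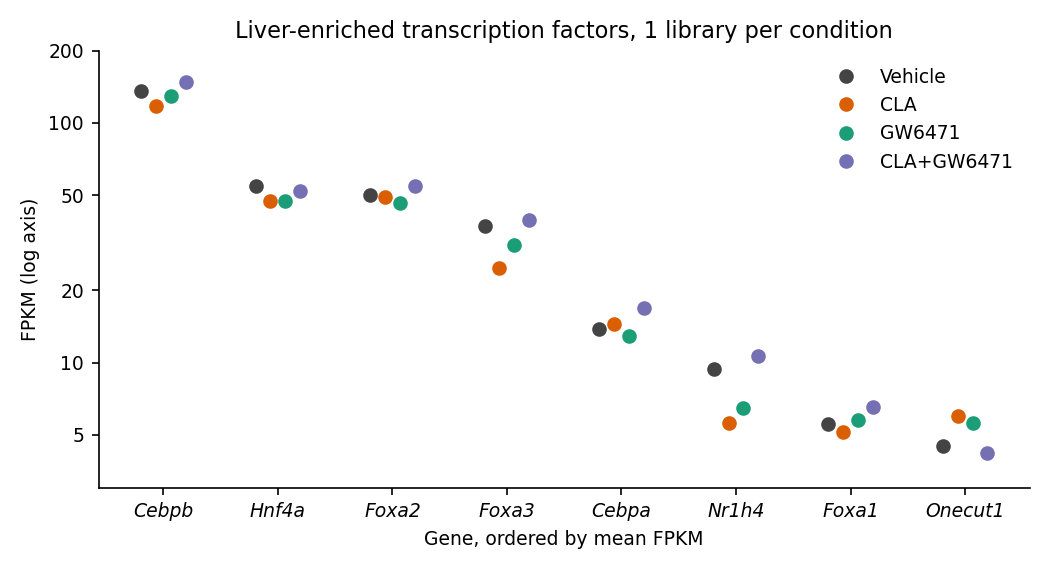
FPKM (log axis) of the 8 liver-enriched transcription factors, ordered by mean FPKM, with 1 point for each of the 4 libraries and no error bar because each condition has 1 library. Cebpb lies above 117 FPKM in every library, Foxa3 and Nr1h4 are lowest in CLA, and Onecut1 is highest there.

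Hnf4a and Nr1h4 are the nuclear receptors of the group. Hnf4a (Entrez 15378) spans 163332544 to 163398646 of chromosome 2 in mm9 on the plus strand and encodes HNF4α, a regulator of apolipoprotein, coagulation factor and drug metabolism genes. The antisense gene 0610008F07Rik and a small RNA gene of the U6 class overlap its span. It had 54.53 FPKM in Vehicle, 51.84 in CLA+GW6471, 47.31 in CLA and 47.23 in GW6471. The libraries with a single treatment had nearly the same value, and both were below the other two. The log2 ratio of CLA to Vehicle was -0.20 (95% counting interval -0.27 to -0.14), and that of GW6471 to Vehicle was -0.21 (-0.27 to -0.15). Hnf4a had the narrowest range of the group, 1.15-fold from the lowest to the highest library.

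Nr1h4 (Entrez 20186) encodes FXR, the receptor through which bile acids repress their own synthesis and promote their export. In mm9 it spans 88916979 to 88996330 of chromosome 10 and is read from the minus strand. It had 9.39 FPKM in Vehicle, 10.65 in CLA+GW6471, 5.59 in CLA and 6.44 in GW6471, about 355, 412, 210 and 247 reads. CLA and GW6471 were the low libraries, and the values of Vehicle and CLA+GW6471 were well above both. This was the widest range of the group, 1.89-fold. The log2 ratio was -0.74 (95% counting interval -1.0 to -0.50) for CLA to Vehicle and -0.54 (-0.78 to -0.31) for GW6471 to Vehicle. It was 0.92 (0.69 to 1.18) for CLA+GW6471 to CLA and 0.72 (0.50 to 0.96) for CLA+GW6471 to GW6471.

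The FOXA proteins are pioneer factors of endoderm and liver. Foxa1 (Entrez 15375, minus strand of chromosome 12, 58641618 to 58647108 in mm9) had 5.56 FPKM in Vehicle, 6.51 in CLA+GW6471, 5.12 in CLA and 5.76 in GW6471. CLA and GW6471 each lay within counting error of Vehicle. Foxa2 (Entrez 15376, minus strand of chromosome 2, 147868613 to 147872705) stood far higher, at 49.98 FPKM in Vehicle, 54.35 in CLA+GW6471, 48.89 in CLA and 46.23 in GW6471. Its CLA and Vehicle values lay within counting error, with a log2 ratio of -0.03 (95% counting interval -0.12 to 0.06).

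Foxa3 (Entrez 15377, minus strand of chromosome 7, 19598631 to 19608887) is the family member most restricted to endodermal organs in the adult. It varied more than the other FOXA genes, with 37.11 FPKM in Vehicle, 39.49 in CLA+GW6471, 24.76 in CLA and 31.00 in GW6471. Vehicle and CLA+GW6471 were again the high libraries, and CLA was the lowest. The log2 ratio of CLA to Vehicle was -0.58 (95% counting interval -0.70 to -0.46), or 1.497-fold, and thus just short of the 1.5-fold used for a call. The log2 ratio of CLA+GW6471 to CLA was 0.67 (0.56 to 0.79). GW6471 to Vehicle gave -0.26 (-0.37 to -0.15), a smaller difference than with CLA.

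The C/EBP factors bind as dimers, C/EBPα in quiescent hepatocytes and C/EBPβ more in the acute-phase response and regeneration. Cebpb (Entrez 12608, a single exon on the plus strand of chromosome 2, 167514415 to 167515918 in mm9) was the highest factor, at 136.42 FPKM in Vehicle, 148.82 in CLA+GW6471, 117.42 in CLA and 130.00 in GW6471. Only between 470 and 613 of the listed genes exceeded it in a library. CLA had the lowest value, with a log2 ratio to Vehicle of -0.22 (95% counting interval -0.28 to -0.15). The span of the gene Tmem189 overlaps Cebpb on the opposite strand, and the use of strand in counting was not stated in the methods. Whether an exon of Tmem189 lies there was not checked, and any reads shared by both genes were not told apart.

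Cebpa (Entrez 12606, a single exon on the plus strand of chromosome 7, 35904312 to 35906945) had 13.82 FPKM in Vehicle, 16.83 in CLA+GW6471, 14.55 in CLA and 12.93 in GW6471. CLA and GW6471 each differed from Vehicle by less than counting error, and CLA+GW6471 stood above all of them. The log2 ratio of CLA+GW6471 to GW6471 was 0.38 (95% counting interval 0.23 to 0.53). Cebpb exceeded Cebpa in every library.

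Onecut1 (Entrez 15379, plus strand of chromosome 9, 74709728 to 74737591 in mm9) encodes HNF6, a factor of liver and bile duct development. The noncoding gene Gm16551 and a miRNA gene overlap its span on the same strand, and reads shared with them were not told apart. Its libraries stood in the reverse order of those of Nr1h4 and Foxa3, with 4.47 FPKM in Vehicle, 4.21 in CLA+GW6471, 5.99 in CLA and 5.58 in GW6471. The single treatments gave the high values here, and Vehicle and CLA+GW6471 the low ones. The log2 ratio of CLA to Vehicle was 0.41 (95% counting interval 0.11 to 0.73), on about 203 and 153 reads. For CLA+GW6471 to CLA it was -0.50 (-0.82 to -0.19), and for CLA+GW6471 to GW6471 it was -0.40 (-0.72 to -0.09).

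The sequences before the starts of Nr1h4, Foxa3 and Onecut1 are shown because these genes had the widest ranges across the libraries. They are the 250 bases before the RefSeq transcription start in GRCm38.p6, a newer build than that of the gene positions above, on the strand of the gene. Capitals mark matches to a nuclear receptor half-site (AGGTCA, or TGACCT on the other strand), a TATA box (TATAAA) or an E-box (CACGTG).
Nr1h4, chr10:89506659-89506908, minus strand: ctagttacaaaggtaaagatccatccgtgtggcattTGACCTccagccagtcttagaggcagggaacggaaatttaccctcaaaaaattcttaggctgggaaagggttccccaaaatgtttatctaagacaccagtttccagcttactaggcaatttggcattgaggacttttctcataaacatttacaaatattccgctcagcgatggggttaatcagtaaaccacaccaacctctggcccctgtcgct
Foxa3, chr7:19023540-19023789, minus strand: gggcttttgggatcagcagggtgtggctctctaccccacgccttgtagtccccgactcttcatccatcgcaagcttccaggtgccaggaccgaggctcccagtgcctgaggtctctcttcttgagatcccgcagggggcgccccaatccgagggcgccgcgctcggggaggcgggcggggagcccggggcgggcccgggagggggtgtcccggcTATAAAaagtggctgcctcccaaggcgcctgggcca
Onecut1, chr9:74861671-74861920, plus strand: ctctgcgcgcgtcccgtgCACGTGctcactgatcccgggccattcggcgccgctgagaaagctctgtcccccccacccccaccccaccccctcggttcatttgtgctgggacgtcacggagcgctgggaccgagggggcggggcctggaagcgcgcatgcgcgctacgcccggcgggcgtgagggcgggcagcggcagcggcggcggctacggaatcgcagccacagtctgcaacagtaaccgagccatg

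The Nr1h4 sequence had a G and C content of 44.4%, against 68.8% for Foxa3 and 71.6% for Onecut1 and a median of 52.4% over 32851 RefSeq promoters. Its half-site lay 214 to 209 bases before the start, and 14% of all promoters held such a half-site in their 250 bases on either strand. The TATA box of Foxa3 was 36 to 31 bases before the start, where 12.4% of all promoters had this motif anywhere in the window. Onecut1 had its E-box, the motif that CLOCK and BMAL1 bind, 232 to 227 bases before the start, against 6.02% of all promoters. No start of the 8 genes, 11 in all, held the C/EBP motif TTGCNNAA, present in 9.56% of promoters. The forkhead motif TGTTTAC was found before Foxa1, in its own family, at 141 to 135 bases before the start and in 3.17% of all promoters. The HNF6 motif ATTGATT stood before the first starts of Hnf4a and Foxa2, and in 2.61% of promoters. The other HNF6 motif searched, ATCGAT, and the other forkhead motif, TGTTTGC, were at none of the 11 starts, and in 0.728% and 4.3% of promoters. Shares are per promoter and per motif, whereas these matches come from 14 motifs searched at 11 starts. These matches are letters in a window and were not related to the measured levels.

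Libraries were compared by the log2 ratio after 0.1 was added to each FPKM, which slightly understates the change of low genes. A gene was called higher or lower from 1.5-fold, among the 10355 genes with a mean of at least 1 FPKM over the 4 libraries. With 1 library per condition there was no replicate error and no test was made, so each ratio describes these libraries. In CLA against Vehicle, Nr1h4 was called lower, as were 4.95% of all genes, and no factor was called higher, against 7.30% of all genes. In GW6471 against Vehicle no factor was called, with 3.28% of all genes higher and 2.10% lower. CLA+GW6471 against CLA had 2 factors called higher, Nr1h4 and Foxa3, against 6.84% of genes, and none called lower, against 9.15%. CLA+GW6471 against GW6471 had Nr1h4 called higher, against 2.81% of genes, and none called lower, against 3.88%. With 8 genes, 1 call is already a larger share than these, so the counts themselves say nothing particular about the group.

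The median log2 ratio of the factors was -0.16 in CLA against Vehicle, with 6 lower and 2 higher, and -0.0071 over all genes. It was -0.10 in GW6471 against Vehicle, where all genes had -0.0041. Scaling the libraries to a common FPKM sum changed these last values to -0.06 and 0.04. In CLA+GW6471 against CLA the median was 0.27, beside 0.0090 over all genes. All factors but Onecut1 were higher in CLA+GW6471 than in CLA. The same 7 factors were higher than in GW6471, with a median of 0.21 for the group and 0.0041 over all genes, or 0.15 and -0.06 with a common FPKM sum. Each library enters 2 of these 4 comparisons. CLA is the first library in CLA against Vehicle and the second in CLA+GW6471 against CLA, and GW6471 has the same places in the other pair, so medians of opposite sign are not independent of each other. Many of the differences exceeded counting error, as did those of many other genes. In CLA against Vehicle, 4 factors were lower and 1 higher beyond the counting interval, against 33.5% and 32.1% of the 9762 genes with a known length. For GW6471 against Vehicle these were 5 lower and 1 higher, against 27.3% and 27.5%. In CLA+GW6471 against CLA all 8 passed their interval, 7 higher and 1 lower, where 35.0% and 33.7% of genes did. In CLA+GW6471 against GW6471 there were 6 higher and 1 lower, against 28.9% and 30.3%.

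**Figure D2:**
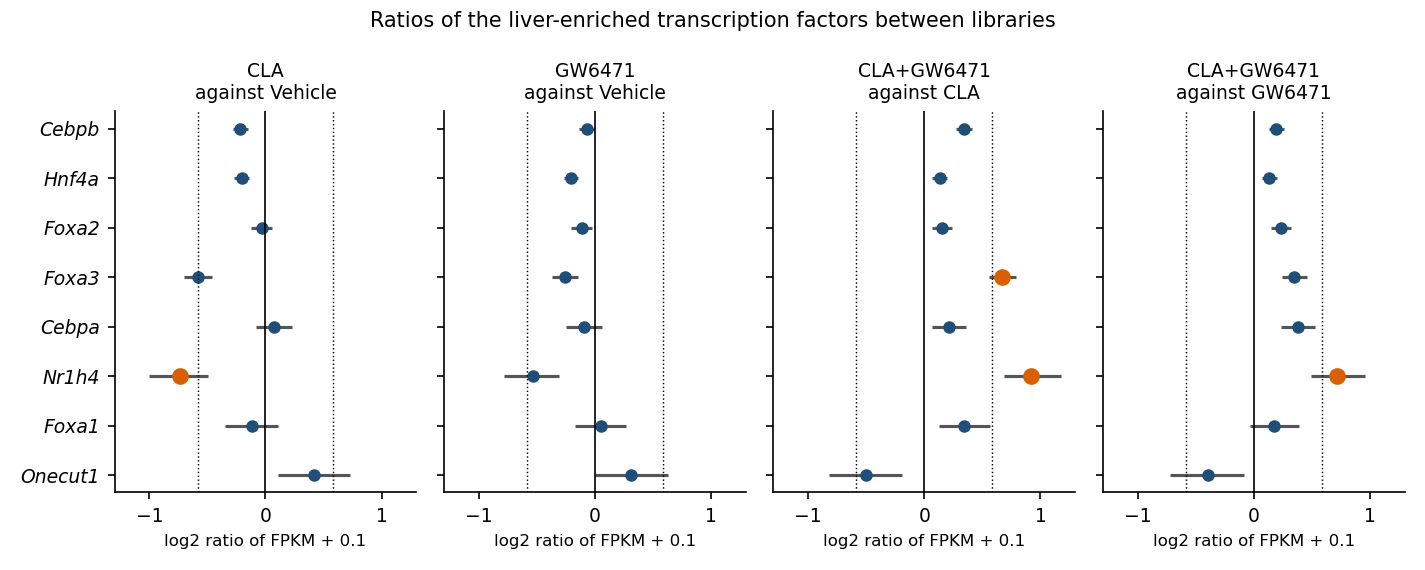
Log2 ratios of FPKM + 0.1 for the 8 factors in the 4 comparisons, with bars for the approximate 95% counting interval, which is not a replicate error. Dotted lines mark 1.5-fold and orange points the calls: Nr1h4 at -0.74, 0.92 and 0.72, and Foxa3 at 0.67.

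CLA was given with and without GW6471, so the CLA ratio of each factor could be set side by side in the presence and absence of the antagonist. For Nr1h4 it was -0.74 without and 0.72 with GW6471, a difference of 1.45 on the log2 scale. Foxa3 went from -0.58 to 0.35, and Onecut1 in the other direction, from 0.41 to -0.40. Hnf4a, at -0.20 and 0.13, and Cebpb, at -0.22 and 0.19, also had opposite ratios beyond counting error. Scaling the libraries to a common FPKM sum lowered the ratio with GW6471 to 0.07 for Hnf4a and 0.13 for Cebpb. In all, 5 of the 8 factors had opposite ratios beyond counting error, as did 40.0% of the 9762 genes with a known length. For Cebpa both ratios were above 0, at 0.07 and 0.38. Seen by library, Vehicle and CLA+GW6471 both exceeded CLA and GW6471 for 5 of the 8 factors, a pattern found in 31.8% of genes, and both were below them for Onecut1, as in 30.2% of genes. This way of grouping the libraries was chosen after the values were seen. CLA+GW6471 had the highest value for 6 of the 8 factors, as it did for 28.0% of genes. Among all genes with a mean of at least 1 FPKM, the difference of the CLA ratios lay at percentile 98.6 for Nr1h4 and at percentile 10.1 for Onecut1.

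**Figure D3:**
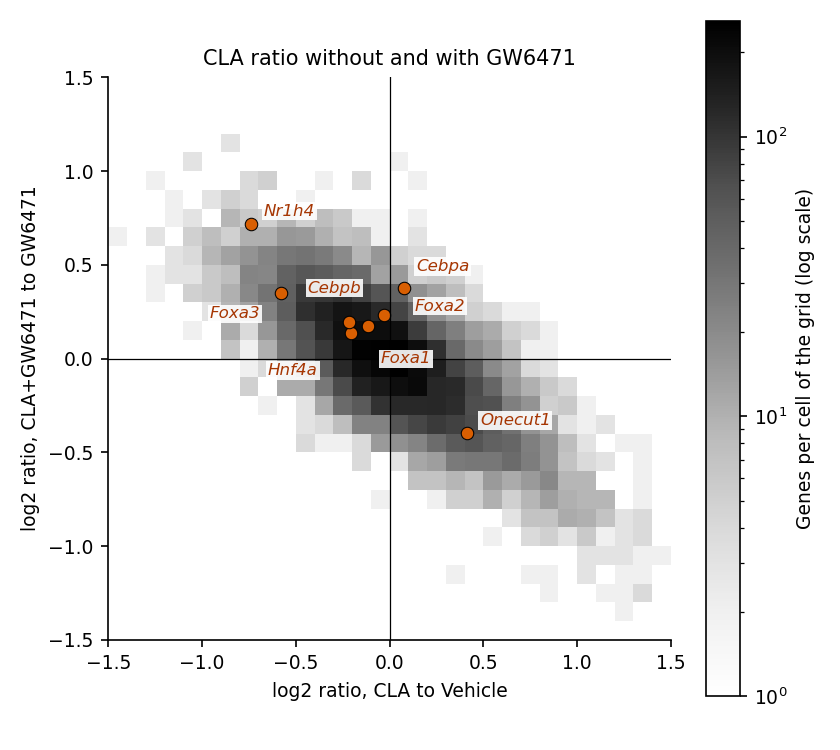
Log2 ratio of CLA to Vehicle (horizontal) and of CLA+GW6471 to GW6471 (vertical) for the 8 factors (orange points) over counts of all genes with a mean of at least 1 FPKM (grey, log scale, cells of 0.1 by 0.1). Genes lie along a falling diagonal, with Nr1h4 in its upper left part and Onecut1 on its lower right side, and 59 of the 10355 genes fall outside the axes.

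Other transcription factors of the liver were less evenly expressed. Of 18 such genes, all listed, 10 had a mean of at least 1 FPKM, and none of these was called in any of the 4 comparisons. The largest shares of all genes called in 1 direction were 7.30% higher in CLA against Vehicle and 9.15% lower in CLA+GW6471 against CLA. Hhex, a homeobox factor of early liver development, had 65.60 FPKM in Vehicle, 62.81 in CLA+GW6471, 75.33 in CLA and 79.11 in GW6471. Tbx3, a T-box factor of hepatoblasts, had 27.83, 29.88, 37.69 and 38.27 FPKM in the same order. In both genes Vehicle and CLA+GW6471 stood below the single treatments. Among nuclear receptors of xenobiotics and bile acid feedback, chosen after their values were seen, the mean was 0.83 FPKM for Nr1i3 (CAR), 0.02 for Nr1i2 (PXR) and 0.06 for Nr0b2 (SHP). Ppara, the receptor that GW6471 blocks, had 0.15 FPKM in Vehicle, 0.07 in CLA+GW6471, 0.11 in CLA and 0.06 in GW6471. None of the 4 values of Ppara exceeded 0.15 FPKM.

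Among the relatives of the C/EBP genes, Ddit3, which encodes the stress-induced partner CHOP, exceeded Cebpb in every library. It had 318.78 FPKM in Vehicle, 331.54 in CLA+GW6471, 195.69 in CLA and 265.73 in GW6471, the order of libraries seen for Cebpb. Its log2 ratio of CLA to Vehicle was -0.70, the single call among the 3 listed genes of that list in this comparison, where 4.95% of all genes were lower. Ddit3, at 0.76, was also the single call in CLA+GW6471 against CLA, where 6.84% of all genes were higher. Cebpg ranged from 21.58 FPKM in CLA to 30.75 in GW6471, and Cebpd, another acute-phase factor, from 2.11 to 3.24 FPKM.

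Many known target genes of the factors were at or near 0 although the factors were present. Of 22 HNF4α target genes written down, 15 were listed and 5 had a mean of at least 1 FPKM, with a median of 0.83 FPKM. Ttr, the carrier of thyroid hormone, had 0.04 FPKM in Vehicle, CLA and CLA+GW6471 and was listed at 0 in GW6471. Cyp7a1, which catalyses the first step of bile acid synthesis, was at or below 0.02 FPKM in all libraries. The sterol 27-hydroxylase gene Cyp27a1, in contrast, had a mean of 23.3 FPKM, with a log2 ratio of CLA to Vehicle of 0.09. For FXR, 11 of 15 target genes were listed and 4 had a mean of at least 1 FPKM, with a median of 0.54 FPKM. The canalicular transporters Abcc2, with 67.47 FPKM in Vehicle and 86.47 in CLA, and Abcb11, with 0.03 and 0.04 FPKM, were far apart in level. Abcc2 had 90.58 FPKM in GW6471 and 65.08 in CLA+GW6471, and was thus high where Nr1h4 was low. The other abundant FXR targets had this pattern in part or not at all. Apoc2 had 20.57 FPKM in Vehicle, 12.04 in CLA+GW6471, 25.78 in CLA and 15.79 in GW6471, and Fetub, a plasma protein, had 30.65, 27.23, 33.17 and 30.19 FPKM in that order. Both were thus highest in CLA and lowest in CLA+GW6471, but lower in GW6471 than in Vehicle. Sdc1, a cell surface proteoglycan, ranged only from 29.38 to 31.13 FPKM. None of the 5 HNF4α targets or the 4 FXR targets with a mean of at least 1 FPKM was called in CLA against Vehicle, where 7.30% of all genes were higher and 4.95% lower, or in GW6471 against Vehicle, where 3.28% were higher and 2.10% lower. In CLA+GW6471 against CLA, 2 of the HNF4α targets were called lower, beside 9.15% of all genes, namely the apolipoprotein genes Apob at -0.76 and Apoc2 at -1.09 on the log2 scale. Apoc2 was also the 1 FXR target called there, and Apob, at -0.72, the 1 HNF4α target called in CLA+GW6471 against GW6471, beside 3.88% of all genes.

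**Figure D4:**
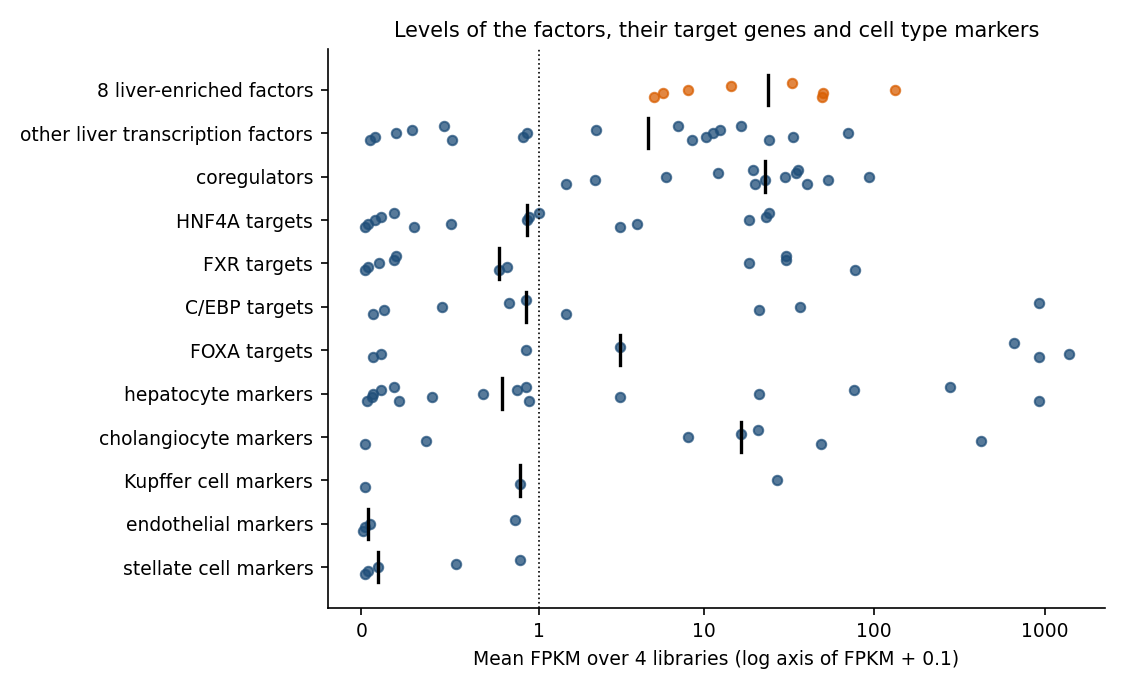
Mean FPKM over the 4 libraries (log axis of FPKM + 0.1) of the listed genes of each list, 1 point per gene, with the median as a bar and a dotted line at 1 FPKM. The 8 factors (orange) all lie above 5 FPKM, whereas the medians of the HNF4A, FXR and C/EBP targets and of the hepatocyte markers lie below 1 FPKM.

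The targets of the C/EBP and FOXA factors held some of the most abundant transcripts. Of 16 C/EBP targets, 9 were listed and 4 had a mean of at least 1 FPKM, and 3 of these, Alb, Hp and Ass1, were called higher in CLA than in Vehicle, against 7.30% of all genes. Of 9 FOXA targets, 7 were listed and 4 had a mean of at least 1 FPKM, of which Alb, Afp and Igfbp1 were called higher. Alb, the gene of serum albumin, belongs to both lists and had 679.53 FPKM in Vehicle, 620.17 in CLA+GW6471, 1321.55 in CLA and 1067.32 in GW6471. Afp, the fetal counterpart of albumin, had 521.63, 442.72, 936.59 and 738.91 FPKM in that order. Igfbp1, a secreted binding protein of insulin-like growth factors, had 1029.75, 953.39, 1901.41 and 1695.21 FPKM. In each of Alb, Afp and Igfbp1, CLA was highest and CLA+GW6471 lowest, the reverse of Foxa3, Nr1h4 and Cebpb. The share of all genes with this order was not computed. The other C/EBP targets with a mean of at least 1 FPKM did not have it. Ass1 and Hp were lowest in Vehicle, at 16.64 and 1.01 FPKM, and C3 was highest in GW6471, at 41.74 FPKM. All 4 FOXA targets with a mean of at least 1 FPKM, Apob included, were called lower in CLA+GW6471 than in GW6471, against 3.88% of all genes.

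**Figure D5:**
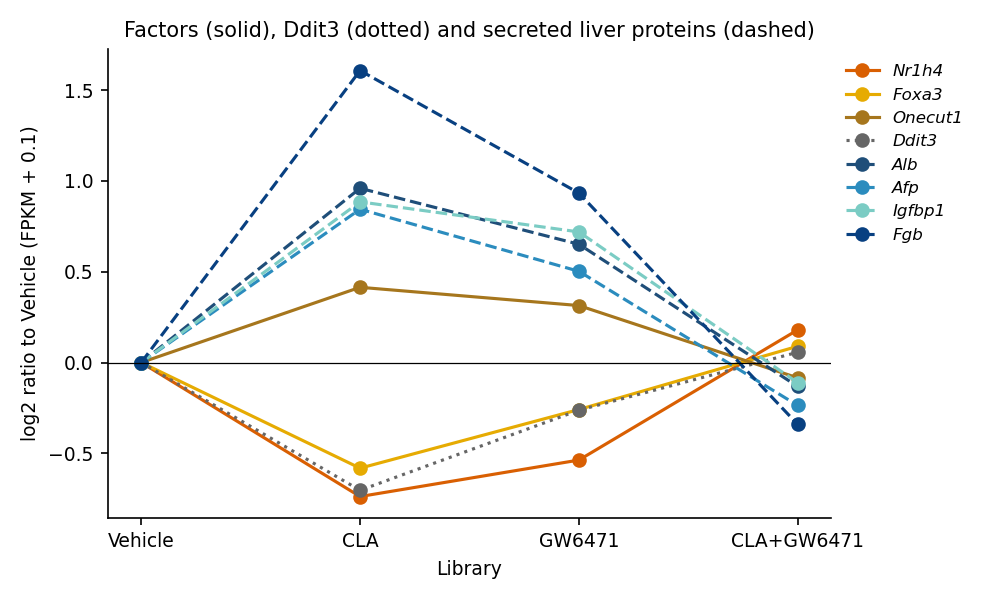
Log2 ratio to Vehicle of FPKM + 0.1 in the 4 libraries for 3 factors with wide ranges (solid lines), Ddit3 (dotted) and 4 secreted liver proteins (dashed). The lines join the libraries only to guide the eye. Fgb reaches 1.61 and Alb 0.96 in CLA, where Nr1h4 stands at -0.74 and Ddit3 at -0.70.

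The labelled tissue was checked against markers of hepatocytes and of the other cells of liver. Of 20 hepatocyte markers, 16 were listed, 5 had a mean of at least 1 FPKM and 6 were under 0.1 FPKM, among them Tdo2, Cps1 and Cyp2e1. The markers present were Alb, Trf, Fgb, Ass1 and Apob, and the summed level of all 16 ranged from 900.29 FPKM in CLA+GW6471 to 1844.79 in CLA, with 968.56 in Vehicle and 1499.22 in GW6471. Fgb, the fibrinogen beta chain, had 45.22 FPKM in Vehicle and 138.03 in CLA. The defining genes of endothelial cells (Stab2, Kdr, Cdh5) and stellate cells (Col3a1, Pdgfrb, Acta2) were at or below 0.05 FPKM in every library. Summed levels were 0.51 to 0.94 FPKM for 4 listed endothelial markers of 6 and 0.81 to 1.21 FPKM for 5 listed stellate markers of 8. For Kupffer cells, 3 of 7 markers were listed, with sums of 24.11 FPKM in Vehicle, 25.03 in CLA+GW6471, 36.55 in CLA and 25.62 in GW6471. Nearly all of this was Cd68, while Cd5l was listed at 0 in 3 libraries.

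Cholangiocyte markers were more evident. All 7 were listed and 5 had a mean of at least 1 FPKM, with sums of 474.10 FPKM in Vehicle, 405.19 in CLA+GW6471, 656.65 in CLA and 544.14 in GW6471. The osteopontin gene Spp1 made up most of this, and Krt19 and Cftr were under 0.3 FPKM in every library. Sox9, a factor of bile duct cells, had 54.74 FPKM in Vehicle, 57.05 in CLA+GW6471, 34.72 in CLA and 48.67 in GW6471, the same order of libraries as Foxa3. The part of cell composition in the values of the 8 factors was not tested. In a bulk sample, fewer cells that express a gene and less of its RNA per cell cannot be told apart.

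For each factor, the 3 genes with a mean of at least 5 FPKM and the most similar profile were found by the distance between centred log2 profiles over the 4 libraries. Nr1h4 was most like Ctns, Vps26a and Tmem158, at distances of 0.046 to 0.062 log2 units. Ctns had 22.10 FPKM in Vehicle, 24.55 in CLA+GW6471, 12.65 in CLA and 14.72 in GW6471, so that both single treatments were low there too. Foxa3 was closest to Adpgk, at a distance of 0.0021, with 22.91, 24.39, 15.30 and 19.16 FPKM. The gene nearest to Onecut1 was Sat1, at 0.011. Hnf4a had Fam105b at 0.014, Cebpb had Reps1 at 0.0084, and Foxa2 had the ribosomal protein gene Rpl23 at 0.0077. Foxa1 was nearest to Atmin, at 0.016, and Cebpa to Bcl2l12, at 0.020. With 4 values per gene, this likeness is a description and was not tested.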

How the data were processed

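RNA-seq of mouse liver was compared between 4 libraries, 1 per condition, grouped by the treatment label. BWA and Bowtie (mapping to mm9) and Cufflinks (quantification) were the tools of the authors, whose deposited FPKM have 2 decimals. Their versions and the filter behind the 15500 listed genes were not stated. The unit, absent from the header, rests on a supplementary table with equal values headed FPKM. All 4 value columns were used. From these FPKM, log2 ratios were computed after adding 0.1, without further scaling, in 4 comparisons. No count model and no test was used. Depth was estimated from the steps between low FPKM of genes under 1000 nt with 1 transcript, and counting intervals used the longest coding transcript of GENCODE vM1, the annotation of mm9. They are approximate, cover counting error only and treat fragments as independent. Software was pandas 2.3.3, numpy 2.4.6, matplotlib 3.10.9 and scipy 1.17.1 under Python 3.11.15, and the steps were checked on simulated libraries.

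The 8 genes, the lists of targets, coregulators and cell type markers and the motifs were chosen with earlier results of these data known. Genes were named by rule: the 8 factors, the 3 genes of highest mean FPKM and of largest CLA to Vehicle ratio in each list, low markers or targets as examples, and the 3 nearest profiles per factor. Other names, such as Ppara, Nr1i2 and Nr0b2, were chosen after their values were seen. Promoters came from RefSeq (GRCm38.p6), which matched all 8 genes by symbol, with the same Entrez numbers, at 11 starts, and 14 motifs were searched on both strands. Alternatives covered the pseudocount, the filter, the scaling and the fold for a call. Some listed genes are not reported here.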

Additional observations from a re-analysis of the deposited data

Results flagged for a closer look

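The CLA ratio with GW6471 pointed away from the CLA ratio without it, beyond counting error in both, for 5 of the 8 factors. The same held for 40.0% of the 9762 genes with a known length and a mean of at least 1 FPKM. The difference of the log2 ratios, with minus without GW6471, was 1.45 for Nr1h4, 0.93 for Foxa3, 0.41 for Cebpb, 0.34 for Hnf4a and -0.81 for Onecut1. These differences were not tested, since each condition has 1 library. They lay at percentiles 98.6, 94.1, 76.5, 72.5 and 10.1 of the differences of all genes with a mean of at least 1 FPKM.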

How the results depend on the processing

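No paired analysis was possible because each condition has 1 library. The alternatives were a pseudocount of 0.01 or 1, no filter or a mean of at least 5 FPKM, scaling of the libraries to a common FPKM sum or by median of ratios, and a call at 2-fold, and a limit of 0.5 FPKM for counting a factor as expressed. Of 59 counts and medians of the group under an alternative, 55 stayed within 1.5 times the reported count or within counting error, and no median of the group changed sign. Scaling to a common sum gave 2 calls in CLA against Vehicle in place of 1, since Foxa3 then passed 1.5-fold, while calls over all genes went from 756 higher and 513 lower of 10355 to 688 and 584 of 10351. At 2-fold, 0 factors were called in each comparison. Of 224 ratios of single factors, 2 moved beyond their counting interval, both in CLA+GW6471 against GW6471 with a common sum, where Hnf4a had 0.07 and Cebpb 0.13, and no called ratio changed sign. Neither the changes of filter nor the limit of 0.5 FPKM could alter a value of the group, because every factor had a mean of at least 5.06 FPKM. The call at 2-fold could not alter a ratio or a median. Those entries among the 59 and the 224 were thus the same in advance and say nothing about stability.

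Over all genes, calls higher and lower in CLA against Vehicle numbered 756 and 513, with 448 and 323 at a mean of at least 5 FPKM, 550 and 332 with a pseudocount of 1, 1373 and 1031 without a filter, and 185 and 77 at 2-fold. With a common sum, GW6471 against Vehicle had 401 and 162 in place of 340 and 217, and CLA+GW6471 against GW6471 had 199 and 548 in place of 291 and 402. GW6471 against Vehicle ranged from 58 and 32 at 2-fold to 806 and 748 without a filter, CLA+GW6471 against CLA from 131 and 276 to 1264 and 1632 around 708 and 948, and CLA+GW6471 against GW6471 from 37 and 83 to 840 and 889. Depth limits mainly Onecut1, Nr1h4 and Foxa1, with 147 to 412 reads.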

Other observations

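The coregulators through which these factors act were all expressed. The 13 genes had means of 1.49 to 93.5 FPKM, and none was called in CLA against Vehicle, where 7.30% of all genes were higher and 4.95% lower. Prmt1, an arginine methyltransferase that serves as a coactivator, had 103.86 FPKM in Vehicle, 90.44 in CLA+GW6471, 95.37 in CLA and 84.33 in GW6471. The histone deacetylase gene Hdac3 had 50.66, 51.90, 57.76 and 54.61 FPKM in that order. Crebbp, the acetyltransferase CBP, was lowest in CLA, at 4.26 FPKM against 6.05 in Vehicle, 6.52 in GW6471 and 6.97 in CLA+GW6471, and was the 1 coregulator called in CLA+GW6471 against CLA, where 6.84% of all genes were higher and 9.15% lower.

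Genes of other epithelia were measured beside the liver genes. Of 10 markers of other endodermal epithelia, 8 were listed and 3 had a mean of at least 1 FPKM, with sums of 50.77 to 70.70 FPKM. Vil1, a microvillus protein, had 42.19 FPKM in Vehicle, 37.85 in CLA+GW6471, 53.72 in CLA and 44.26 in GW6471, and Lgr5, a WNT target of stem cells, had 8.38, 9.01, 11.04 and 13.09 FPKM. The intestinal factor Cdx2 and the lung factor Nkx2-1 were at or below 0.02 FPKM. Of 9 markers of stratified epithelium, 8 were listed and 4 had a mean of at least 1 FPKM, with sums of 8.30 to 10.14 FPKM. These were Krt5 at 3.25, Ivl at 2.23, Sfn at 2.14 and Krt10 at 1.12 FPKM, and Ivl was called higher in GW6471 against Vehicle, beside 3.28% of all genes, and lower in CLA+GW6471 against GW6471, beside 3.88%. The defining genes Krt14 and Trp63 were at or below 0.05 FPKM. The 3 listed leukocyte markers of 6 summed to 0.05 to 0.16 FPKM.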
